A study of Mus musculus with 6 samples.

Results

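Claudins, occludin, ZO-1, E-cadherin and EpCAM are proteins that hold epithelial cells together, and mouse embryonic stem (ES) cells express many of them. The 10 genes described here are the claudin genes Cldn3, Cldn4, Cldn5, Cldn6, Cldn7 and Cldn12, the tight junction genes Ocln and Tjp1, and the adhesion genes Cdh1 and Epcam. They were chosen by name, with earlier results of these data known, so their shares beside those of all genes are descriptive only. Every probe set of the array that the platform annotation assigns to 1 of these symbols alone was used. This gave 16 probe sets for 10 of 18193 measured genes. Expression was measured in ES cells of strain 129SV, either wild type (3 arrays) or carrying a MED23 knockout (3 arrays). All cells of both groups had spent 24 hours in fresh complete medium before harvest. The labels call the replicates biological and say neither whether they came from separate clones nor how the gene was deleted. The p values therefore cover only the spread among the 3 arrays of a group, which may be technical. Med23 encodes a subunit of Mediator, a large complex through which transcription factors reach RNA polymerase II.

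Tight junctions seal the space between neighbouring epithelial cells. Claudins are membrane-spanning proteins that form the strands of the seal. Occludin is a further strand protein, and ZO-1, encoded by Tjp1, is the scaffold beneath the membrane that ties strands to actin. E-cadherin, encoded by Cdh1, is the calcium-dependent adhesion protein of the adherens junction and also holds ES cell colonies together. EpCAM is a surface adhesion protein of epithelia and ES cells that binds claudin-7.

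The targeted gene was lower in every knockout array: Med23 was 8.88 ± 0.05 in wild type and 7.37 ± 0.04 in the knockout (log2 level, mean ± SD, n = 3 each). The groups also differed at the Y-linked gene Eif2s3y, at 3.04 ± 0.37 in wild type and 9.87 ± 0.15 in the knockout (SD, n = 3), so an effect of Med23 and another difference between the cell lines cannot be told apart. The ES cell label was borne out by its markers: all 10 ES cell marker genes examined, Pou5f1, Nanog and Sox2 among them, had wild-type means between 10.48 and 14.31, against a median of 4.62 over all probe sets. Arrays correlated at 0.9978 to 0.998 within the knockout group and at 0.993 to 0.9974 within wild type. Wild-type replicate 1 stood apart, being at least 2-fold below the other wild-type arrays' mean in 752 probe sets. In bulk RNA, fewer cells that express a gene and less RNA per cell cannot be told apart. With 3 arrays per group, precision is limited throughout.

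Of the 10 genes, 6 fell in the knockout (Epcam, Cldn7, Cldn6, Cldn3, Ocln and Cldn4) and 4 did not pass the test (Cldn5, Cldn12, Tjp1 and Cdh1). The test was limma, with p values of all 45037 probe sets adjusted by Benjamini-Hochberg, at a threshold of 0.05. By the same test 10.4% of all genes were lower and 8.53% higher. These shares are not matched for level. Of all 18193 genes, 6367 had both group means at or under the median of all probe sets, against 0 of the 10. None of the 10 genes rose with limma at the adjusted threshold, and 1, Tjp1, was higher at an unadjusted p under 0.05. Of the 10, 5 fell at least 2-fold, against 1.93% of all genes. The median log2 fold change of the 10 genes was -0.92, against 0.02 over all genes. All knockout arrays were below all wild-type arrays in 7 of the 10 genes and above them in 1, against 19.5% and 21.4% of all genes. Each of the 6 falls passed the test in every alternative fit and with any 1 array left out.

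**Figure D1:**
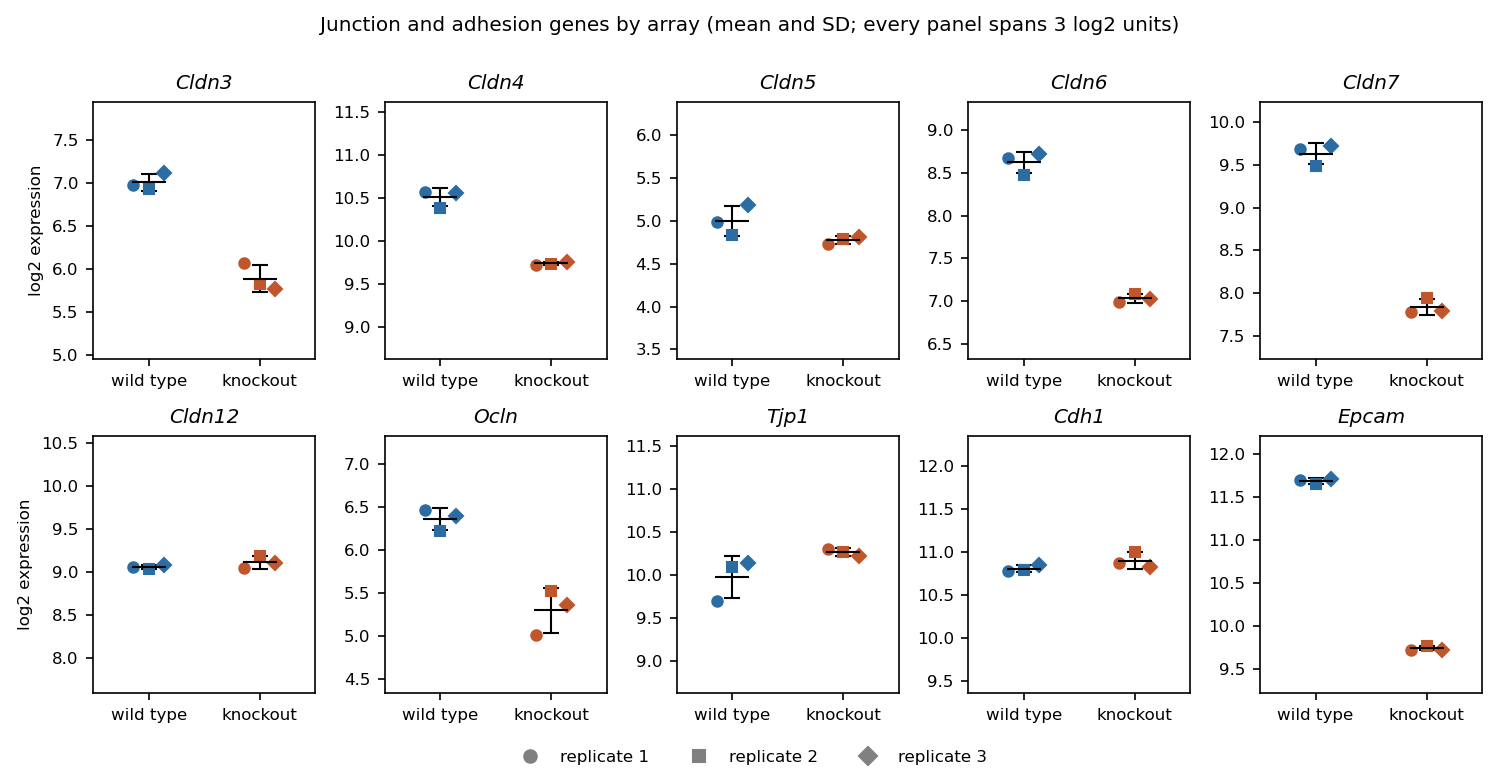
Log2 expression of the 10 genes in 3 wild-type arrays (blue) and 3 knockout arrays (orange), with 1 symbol per replicate and the mean and SD in black; every panel spans the same number of log2 units. The groups lie far apart for Epcam (11.69 against 9.74), Cldn7 and Cldn6, and overlap for Cdh1 and Cldn12.

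The DNA before the start of 4 of the genes that fell is shown first, because these genes moved together and each has a single start in the table of promoters. The sequences are from RefSeq on build GRCm38.p6, each the 250 bases before the annotated start, on the gene's own strand. Capitals mark CAGGTG or its complement CACCTG, the E-box bound by SNAIL and ZEB repressors, which are known to silence epithelial genes. The intervals are chr17:87635729-87635978 (+) for Epcam, chr17:23679115-23679364 (+) for Cldn6, chr5:134946935-134947184 (-) for Cldn4 and chr5:134985964-134986213 (+) for Cldn3.
Epcam: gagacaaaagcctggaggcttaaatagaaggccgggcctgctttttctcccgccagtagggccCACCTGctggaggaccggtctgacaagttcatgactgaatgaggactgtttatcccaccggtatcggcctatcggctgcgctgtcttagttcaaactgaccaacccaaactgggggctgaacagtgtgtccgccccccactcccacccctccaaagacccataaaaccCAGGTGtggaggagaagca
Cldn6: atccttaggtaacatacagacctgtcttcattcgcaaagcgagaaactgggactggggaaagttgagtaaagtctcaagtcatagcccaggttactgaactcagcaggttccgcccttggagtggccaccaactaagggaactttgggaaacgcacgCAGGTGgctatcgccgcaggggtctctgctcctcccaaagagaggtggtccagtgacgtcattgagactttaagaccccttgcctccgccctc
Cldn4: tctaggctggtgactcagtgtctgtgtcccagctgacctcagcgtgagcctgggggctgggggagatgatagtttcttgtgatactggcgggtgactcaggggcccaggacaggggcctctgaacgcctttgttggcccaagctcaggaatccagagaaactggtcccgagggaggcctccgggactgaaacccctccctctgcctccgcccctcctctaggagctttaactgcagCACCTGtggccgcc
Cldn3: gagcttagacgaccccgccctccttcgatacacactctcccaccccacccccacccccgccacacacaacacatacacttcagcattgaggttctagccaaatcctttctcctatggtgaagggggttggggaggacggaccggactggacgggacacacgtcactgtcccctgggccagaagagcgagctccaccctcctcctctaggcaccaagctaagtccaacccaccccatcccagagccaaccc

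The E-box letters begin 19 bases and 187 bases before the start of Epcam, 93 bases before that of Cldn6 and 14 bases before that of Cldn4, and are not in the window of Cldn3. Promoters were listed for 9 of the 10 genes, all but Cdh1, which did not pass the test and could not be searched. Both strands and every listed start were searched, since Cldn7, Ocln and Cldn12 have several. The E-box was in 5 of the 6 genes that fell (Cldn4, Cldn6, Cldn7, Ocln and Epcam) and in 0 of the 3 listed genes that did not pass the test (Cldn5, Cldn12 and Tjp1). In Cldn7 and Ocln another listed start lacked the E-box. Among all 27025 genes with a promoter, 19.4% held it, counting every listed start. The GC box GGGCGG, bound by SP and KLF factors, was in all 9, against 35.4% of all genes. The windows of the 9 held from 42% G and C letters (a Cldn12 start) to 69.2% (an Ocln start). Most were above the median of 52.4% over all entries. What part this has in the GC box matches was not tested. The AP-1 site TGANTCA was in Cldn4 alone, where it occurs at 240 bases and 158 bases before the start, against 7.8% of all genes. The TATA box TATAAA was in none of the 9 (14.3% of all genes), nor was the Grainyhead site AACCGGTT, held by 37 of all 27025 genes. The motifs were chosen with earlier results of these data known. A match describes the letters only, and a link between the E-box and the falls was not tested.

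Among the claudins, Cldn7, found along the sides of epithelial cells where it binds EpCAM, had log2 levels of 9.68, 9.49 and 9.72 in wild type (replicates 1, 2 and 3, the order kept from here on) and of 7.78, 7.95 and 7.79 in the knockout. The groups were well separated, with wild-type replicate 2 the lowest of its group. The mean was 3.45-fold lower in the knockout, or -1.79 on the log2 scale (SE 0.09, limma adjusted p = 5.22e-05). Cldn6, a claudin of early embryonic epithelia that is largely silent in adult tissue, was 8.67, 8.48 and 8.71 in wild type and 6.99, 7.09 and 7.03 in the knockout. Its knockout arrays lay closer together than its wild-type arrays, and no values overlapped. The log2 fold change of Cldn6 was -1.59 (SE 0.08, limma adjusted p = 5.90e-05), or 3.0-fold lower.

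Cldn3 and Cldn4, sealing claudins that also serve as receptors for a clostridial toxin, lie next to each other on chromosome 5. Cldn4 was 10.58, 10.39 and 10.56 in wild type and 9.72, 9.73 and 9.76 in the knockout. Its fall was the smallest of the 6, at -0.77 (SE 0.07, limma adjusted p = 0.000711), or 1.70-fold, and it was larger than the spread within either group. Cldn3 was read by 4 probe sets, and the brightest gave 6.97, 6.93 and 7.12 in wild type and 6.06, 5.82 and 5.77 in the knockout. All 4 Cldn3 probe sets fell, by 0.73 to 1.46 on the log2 scale, with no overlap between the groups in any of them; the brightest gave -1.12 (SE 0.10, limma adjusted p = 0.000498). Among these 4, 2 carry the suffix x, which marks probes that can match other transcripts, so the size of the Cldn3 fall is less certain than its direction.

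Cldn5, the main claudin of blood vessel endothelium, did not pass the test. It was 4.99, 4.83 and 5.18 in wild type and 4.73, 4.78 and 4.81 in the knockout, close to the median of all probe sets. The groups did not overlap, but by a narrow margin, and the log2 fold change was -0.23 (95% interval -0.45 to 0.0003, adjusted p = 0.187). Of 10 endothelial marker genes, 2 fell (Esam and Cdh5), 1 rose (Tek) and 5 were at or under that median in wild type and knockout alike. Cldn12, which lacks the C-terminal motif by which other claudins bind ZO-1, was 9.06, 9.04 and 9.09 in wild type and 9.04, 9.19 and 9.11 in the knockout. Its groups overlapped, the log2 fold change was 0.05 (95% interval -0.10 to 0.21, adjusted p = 0.67), and its second probe set gave -0.05 (adjusted p = 0.736).

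The strand protein gene Ocln was 6.47, 6.22 and 6.40 in wild type and 5.01, 5.53 and 5.36 in the knockout. Knockout replicate 1 was the lowest, and the spread of the knockout arrays (SD 0.26) was wider than for the other genes that fell. Knockout minus wild type was -1.06 (log2; SE 0.14, limma adjusted p = 0.00288), or 2.09-fold lower. A dimmer Ocln probe set went from 5.03 ± 0.29 to 4.50 ± 0.30 (SD, n = 3); its groups overlapped and it did not pass (-0.53, adjusted p = 0.128). The scaffold gene Tjp1 was 9.70, 10.09 and 10.13 in wild type and 10.30, 10.27 and 10.22 in the knockout. Every knockout array was above every wild-type array, and the lowest value was in wild-type replicate 1, the outlying array. The log2 fold change of Tjp1 was 0.29 (95% interval 0.01 to 0.57, unadjusted) and it did not pass (limma adjusted p = 0.177).

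The adhesion genes Epcam and Cdh1 gave unlike values. Epcam was 11.70, 11.65 and 11.71 in wild type and 9.72, 9.76 and 9.72 in the knockout. Its arrays lay close together within each group, and the groups lay further apart than for the other 9 genes. Knockout minus wild type was -1.95 (log2; SE 0.06, limma adjusted p = 1.30e-05), or 3.87-fold lower. A dimmer Epcam probe set with the suffix x fell by 0.66 (adjusted p = 0.00471), and the mean of both probe sets gave -1.31. Cdh1 was 10.78, 10.78 and 10.85 in wild type and 10.87, 11.003 and 10.82 in the knockout. Its groups overlapped, and the log2 fold change was 0.09 (95% interval -0.08 to 0.26, adjusted p = 0.48), an interval that leaves out a fall of the size seen for Epcam. Its neighbour Cdh3, which encodes P-cadherin, had a log2 fold change of 0.02 (adjusted p = 0.889).

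**Figure D2:**
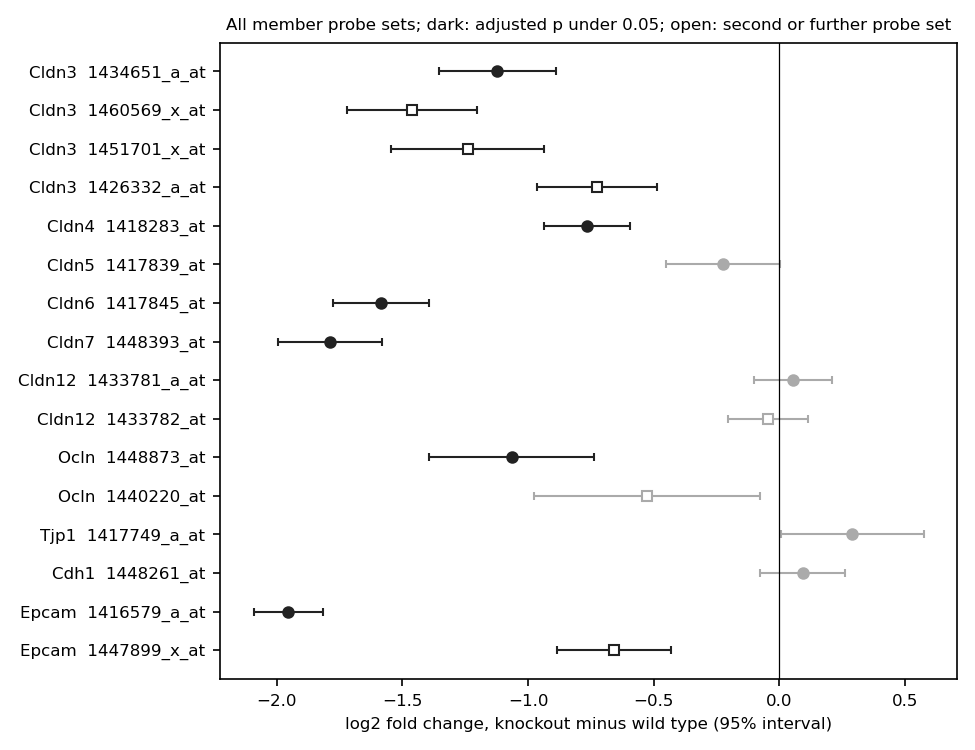
Log2 fold change, knockout minus wild type, of all 16 probe sets with unadjusted 95% intervals; filled circles are the brightest probe set of a gene, open squares the others, and dark symbols passed the test. All 4 Cldn3 probe sets and both of Epcam lie below 0, while Cldn5, Cldn12, Tjp1 and Cdh1 lie near it.

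Neighbouring genes were examined because some claudins sit side by side and because stretches of chromosomes were lower in the knockout. Epcam lies near the end of chromosome 17 in such a stretch: 8 of its 10 nearest measured genes fell, with a median of -0.64. Over brighter genes, a run of 16 others on both sides of it, from Six2 to Mettl4, fell without a gap, with a median of -0.86 and a range of -2.21 to -0.38. The value of Epcam minus that median was -1.10, and of those 16 genes only Epas1 fell further. The run was delimited after its values were seen. What part of the Epcam fall goes with the stretch was not tested.

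The medians of the 10 nearest genes of the other members that fell lay between -0.23 and 0.02. Among the 10 nearest genes of Cldn7, 0 passed the limma test in either direction, and their median was -0.0042; the 50 nearest brighter genes of Cldn7 held 4 that rose and 6 that fell. Around Cldn6, the 10 nearest genes had a median of -0.23 and 4 of them fell: its neighbour Cldn9 went from 5.998 ± 0.338 to 5.02 ± 0.29 (SD, n = 3; -0.98, limma adjusted p = 0.0184), and the nearby genes Bicdl2 (-1.29), Tnfrsf12a (-0.89) and Thoc6 (-0.35) fell. Over the 50 nearest brighter genes the median around Cldn6 was -0.02. A second Cldn9 probe set gave -0.21 and did not pass (adjusted p = 0.164), and the call of the first ended without knockout replicate 1 (adjusted p = 0.0529). Beside Ocln, the gene of another strand protein, Marveld2 (tricellulin), fell by 1.12 (SE 0.12, adjusted p = 0.00133), while of the other near genes Serf1 fell by 0.36, Mrps36 rose by 0.24 and the rest did not pass. Next to Cldn4 and Cldn3 on the other side, Mettl27 rose by 1.08 (adjusted p = 0.000507).

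**Figure D3:**
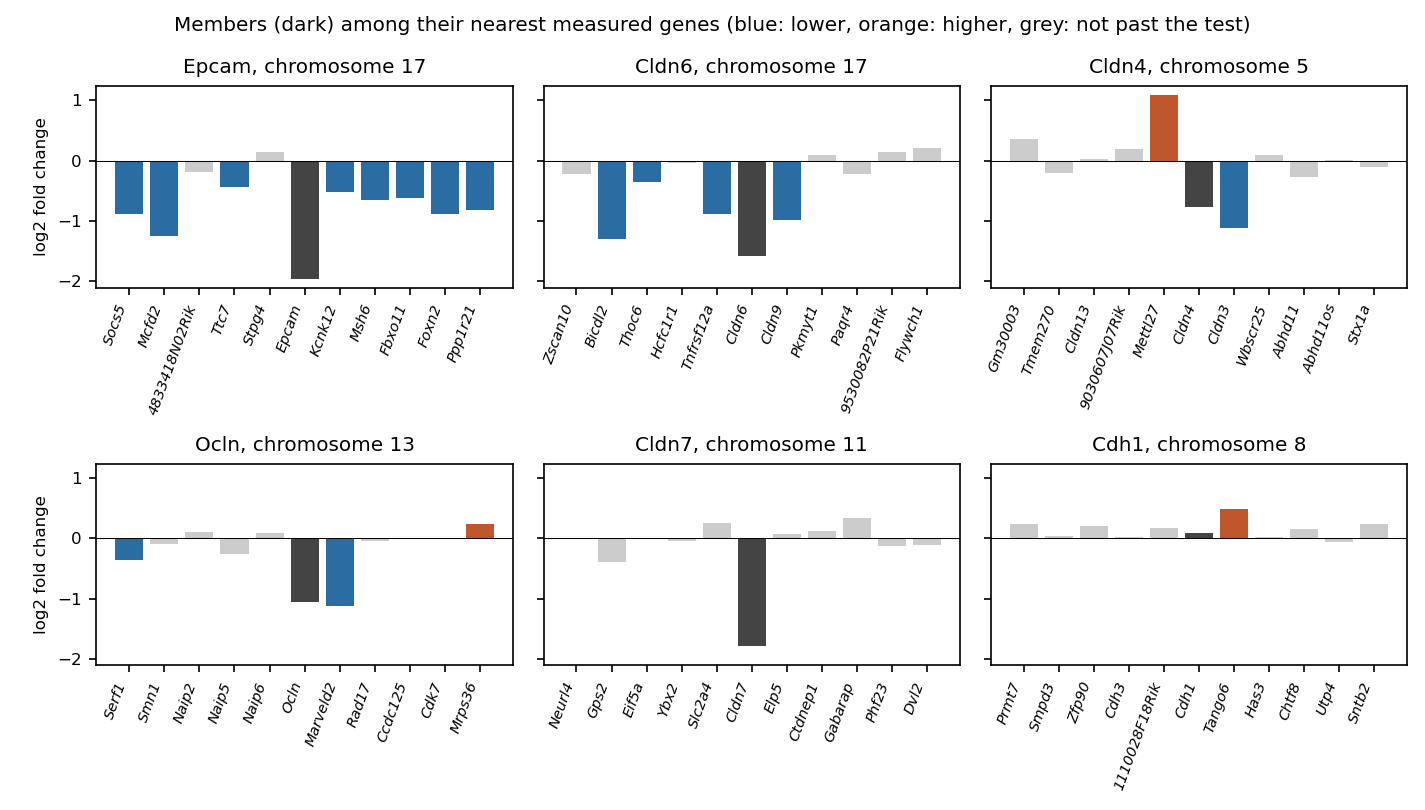
Log2 fold change of Epcam, Cldn6, Cldn4, Ocln, Cldn7 and Cdh1 (dark bars) and of the 5 nearest measured genes on each side, in gene order. Most bars around Epcam are below 0 and blue, whereas Cldn7 stands alone and Ocln falls beside Marveld2.

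Other genes of the junction were taken from 6 lists chosen for what the genes do, also with earlier results of these data known. Of 120 measured genes outside the 10, 35 fell (29.2%, against 10.4% of all genes) and 8 rose (6.67%, against 8.53%), and their median log2 fold change was -0.09, against 0.02 over all genes. Of 16 other claudin genes, 2 fell (Cldn9 and Cldnd1, the latter a claudin-domain gene, by 0.65) and 0 rose with limma, also at an unadjusted p under 0.05. The 12.5% that fell is near the 10.4% of all genes. Of the 16, 14 were dim, with both group means no higher than the 4.62 of all probe sets.

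Of 23 tight junction partners, 7 fell (30.4%, against 10.4% of all genes) and 3 rose (13%, against 8.53%), with a median of -0.08. Amot, which encodes the junction-associated angiomotin, fell from 8.29 ± 0.06 to 5.83 ± 0.13 (SD, n = 3; -2.46, SE 0.08, limma adjusted p = 1.83e-05). Marveld3, of the same protein family as occludin and tricellulin, fell by 1.21. All 3 genes of that family therefore fell. The plaque gene Cgnl1 (paracingulin) rose by 1.002 (adjusted p = 0.000132), while the related cingulin gene Cgn fell by 0.40. Of several probe sets per gene, 1 of 3 passed for Amot, 1 of 3 for Marveld3 and 1 of 5 for Cgnl1. Averaged over all probe sets these changes were smaller, at -0.85, -0.40 and 0.34, and each still passed.

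Of 21 genes of polarity complexes, which mark the junction's place on the cell side, 3 fell (Patj, Crb3 and Prkci, by 1.04, 0.53 and 0.22) and 0 rose with limma at the adjusted threshold, with 1 higher at an unadjusted p under 0.05. The 14.3% that fell is near the 10.4% of all genes, of which 8.53% rose. Prkci lies among 50 brighter genes with a median of -0.57, and its call ended in every fit that left out 1 array. That of Patj ended when wild-type replicate 2 (adjusted p = 0.0619) or knockout replicate 3 (adjusted p = 0.052) was left out, and the mean of its probe sets gave -0.42. Of 22 adherens junction genes, 2 fell and 3 rose (median 0.02): Cdh5, with both group means under 4.62, and Cdh4 fell by 0.62 and 0.51, and Nectin3, Pkp4 and Plekha7 rose by 0.45, 0.37 and 0.27. The share that fell (9.09%) is near the 10.4% of all genes, and 13.6% rose, against 8.53%. The calls of Cdh4 and Nectin3 ended in several fits that left out 1 array and when all probe sets of a gene were averaged, which gave -0.25 (adjusted p = 0.0676) and 0.16 (adjusted p = 0.0937). Cdh5 gave -0.29 when averaged. The catenin genes Ctnna1 (-0.02) and Ctnnb1 (0.02), which tie E-cadherin to actin, did not pass, nor did the neural cadherin gene Cdh2 (-0.15, adjusted p = 0.165).

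Of 17 epithelial surface and protease genes, 8 fell (47.1%, against 10.4% of all genes) and 1 rose (5.88%, against 8.53%), with a median of -0.34. Ap1m2, a subunit of the epithelial sorting adaptor, fell by 1.60, Cdcp1 by 1.59, Podxl by 1.30 and the desmosome gene Dsp by 1.27, with adjusted p from 2.22e-05 to 0.000492. Averaged over their probe sets, Podxl and Dsp gave -0.80 and -0.83. Cd24a rose by 0.39. Of 21 transcription and splicing factor genes known to regulate epithelial genes, 13 fell (61.9%) and 1 rose (4.76%), with a median of -0.41. Ovol2 fell by 1.53, Foxa2 by 1.43, the splicing factor gene Esrp1 by 1.24 and Elf3 by 1.18. The knockout mean of Foxa2 was 3.60, under 4.62. Foxa2 and Hnf4a, both among the falls, are also in the list of endoderm markers examined further on. The list of regulators mixes factors that activate epithelial genes with repressors, among them Snai1, Twist1 and Zeb1. Snai1 and Twist1 fell by 0.41 and 0.61, but both group means of Snai1 and the knockout mean of Twist1 were under 4.62. Zeb1 rose from 7.48 ± 0.17 to 8.17 ± 0.05 (SD, n = 3), by 0.69 (SE 0.10, limma adjusted p = 0.00386). Of 4 Zeb1 probe sets 1 passed, and Zeb1 was named after its value was seen, as the 1 gene of its list that rose.

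**Figure D4:**
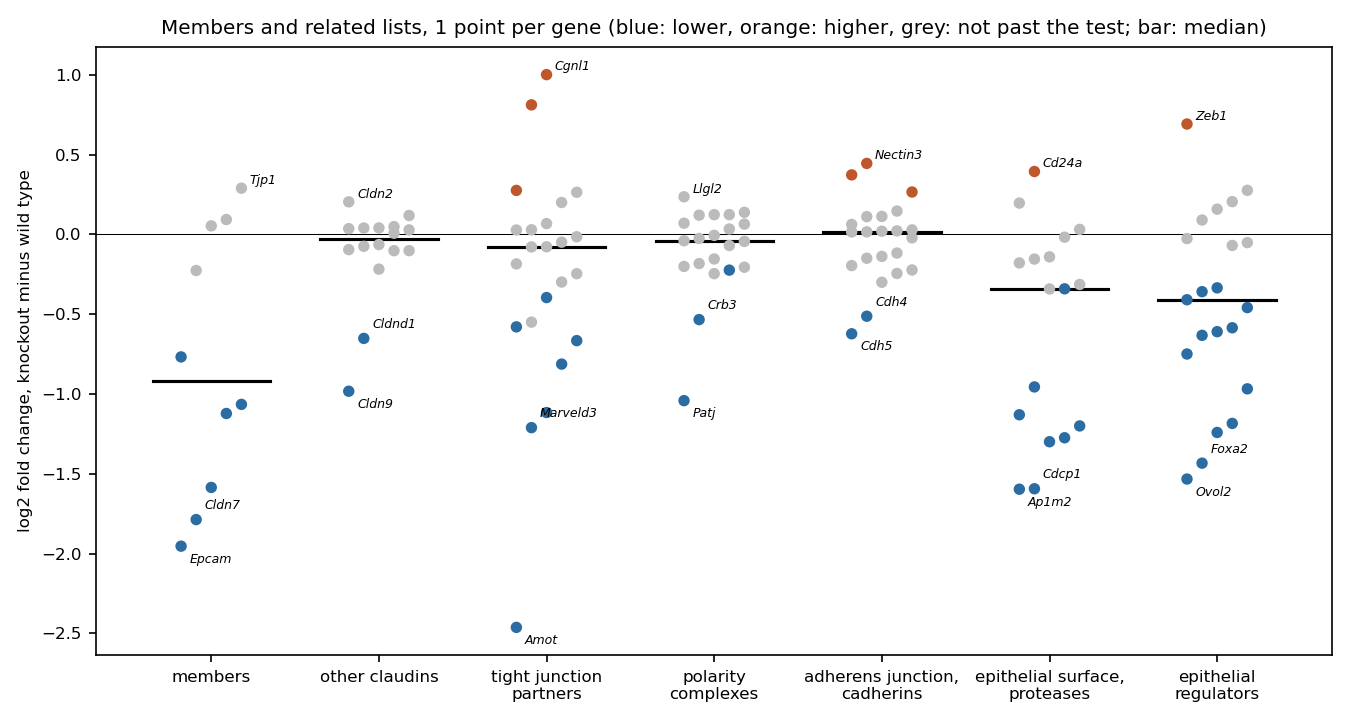
Log2 fold change per gene for the 10 genes and 6 related lists, with blue for lower, orange for higher and grey for not past the test; the bar is the median. Among the related lists, falls took the largest shares in the regulators (13 of 21) and epithelial surface genes (8 of 17), beside 6 of the 10 genes themselves, while the adherens junction genes lie around 0.

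Markers of other cells that an ES culture can hold were also examined, and the endoderm list held the largest share of falls. The shares that fell were 77.8% (endoderm), 41.7% (trophoblast), 30% (ES cell), 20% (endothelium) and 11.1% (fibroblast), against 10.4% of all genes. The summed level of 18 endoderm markers, on the linear scale of the array, was 5703 to 7175 in wild type and 1800 to 1865 in the knockout, and 14 of the 18 fell while 0 rose with limma (also 0 at an unadjusted p under 0.05). The endoderm markers Afp and Ttr had both group means under 4.62. The summed level of 12 trophoblast markers was 3431 to 3822 in wild type and 1406 to 1476 in the knockout; 5 fell, 0 rose with limma, and 1 was higher at an unadjusted p under 0.05. The falls were those of Krt8, Krt18, Krt19 and Krt7, keratin genes of simple epithelia in general, and Ascl2 (-0.35). The trophoblast factor genes Cdx2, Elf5, Gata3, Hand1, Tead4, Tfap2c and Eomes did not pass. Without the 4 keratin genes the sum was 728 to 817 in wild type and 765 to 832 in the knockout, so the groups overlapped. The summed level of the 10 ES cell markers was 60004 to 63804 in wild type and 58751 to 59973 in the knockout, lower in every knockout array. With limma 3 of the 10 fell (Fgf4, Dppa4 and Tdgf1, by 0.37, 0.34 and 0.28), 0 rose and 2 were higher at an unadjusted p under 0.05. Their median log2 fold change was -0.005. All knockout arrays were below all wild-type arrays in 4 of the 10 (19.5% of all genes). They were above in 4 (21.4% of all genes), Esrrb, Nanog, Zfp42 and Sox2, with log2 fold changes of 0.37, 0.23, 0.09 and 0.07. The brightest genes weigh most in the sum. The 9 fibroblast markers summed to 136 to 160.1 in wild type and 115 to 129.5 in the knockout, and 8 of them were under 4.62 in both groups. The part of other cell types in the falls of the claudin genes, Ocln and Epcam was not tested.

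**Figure D5:**
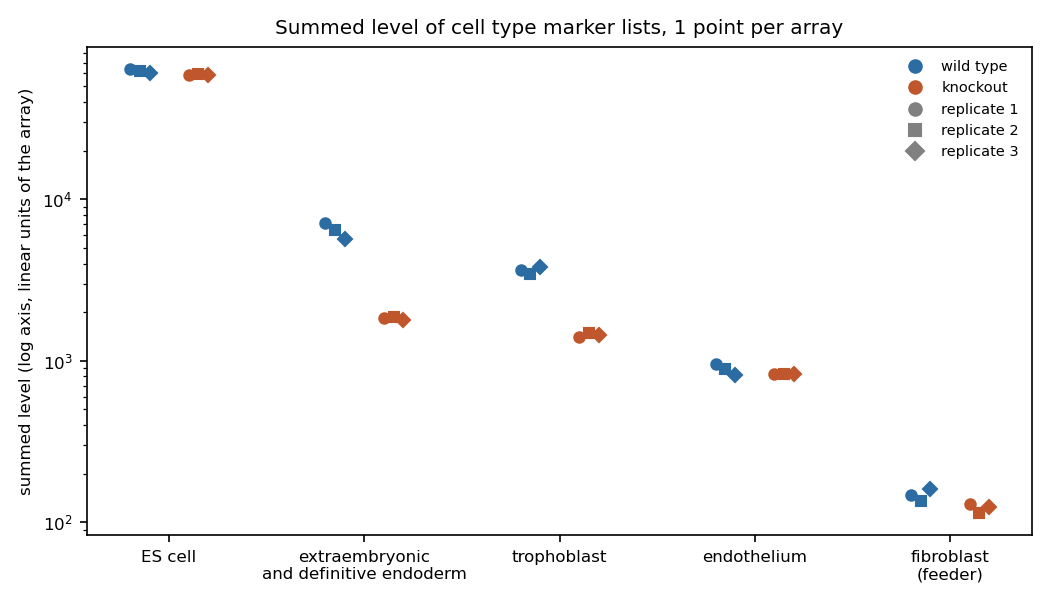
Summed level of 5 marker lists in each array on a log axis, with wild type in blue and knockout in orange. The endoderm, trophoblast, ES cell and fibroblast sums of all knockout arrays lie below those of all wild-type arrays. The ES cell sums lie close together, and the endothelium sums overlap. In wild type 4 keratin genes carry most of the trophoblast sum. In the knockout arrays their sum (634 to 644) is below that of the other 8 trophoblast genes (765 to 832).

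The genes most like Cldn6 over the 6 arrays were sought among 11607 genes with a mean above the median of all probe sets, by the root mean square difference of mean-centred log2 profiles. These were Rnase4, a secreted ribonuclease gene (difference 0.05, log2 fold change -1.62), Krt18, a simple-epithelium keratin gene (0.06, -1.67), Cers4, a ceramide synthase gene (0.06, -1.54), and Camsap3, whose product anchors microtubule ends in epithelial cells (0.07, -1.5003). In Rnase4, Krt18 and Cers4 wild-type replicate 3 was the highest and replicate 2 the lowest of their group, as in Cldn6. In Camsap3 replicate 1 was the highest. Choosing genes by their profile over the same arrays favours such a likeness.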

How the data were processed

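Per the labels' protocols, Trizol-extracted RNA was labelled with biotin for Affymetrix arrays. The deposited table gives a log2 value per probe set and array; that the base is 2 was inferred from their range. The submitters' processing notes name RMA and MAS5 but not which made these values. Values were used as deposited, with 0 columns left aside; no detection calls were used. Of 45101 probe sets, 64 controls were left out. Symbols came from the platform annotation (34945 probe sets with 1 symbol, 932 with several, 9160 with none), and 34741 were updated through Entrez identifiers to RefSeq of GRCm38.p6. A gene was represented by its probe set with the highest mean.

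Groups were compared with limma 3.58.1 in R 4.3.3 (lmFit, eBayes, two-sided, 4 residual degrees of freedom), tested on simulated data. Fold changes are knockout minus wild type. Named genes were the members, Cldn9, Cdh3, per related list up to 4 genes that passed and changed most, and neighbours that differed; others were named after their values were seen. The members, lists and motifs were chosen with earlier results of these data known. Of 131 genes in the related lists, 11 had no probe set of their own here. Alternatives were quantile normalization, median centring, a filter on dim probe sets, trend and robust priors, array weights, the mean of a gene's probe sets, the replicate number as a block, each array left out in turn and, added after seeing the data, a wider window of neighbours. Same-numbered arrays were not treated as pairs, since nothing says that the numbers mark a shared culture or day.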

Additional observations from a re-analysis of the deposited data

How the results depend on the processing

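The 6 falls and the absence of a rise among the 10 genes held in all 13 alternatives; without 1 array the counts were 6 to 6 lower and 0 to 0 higher. Fold changes of Epcam ran from -1.97 to -1.31 (the latter as the mean of its probe sets) and of Ocln from -1.18 to -0.80. Without 1 array, related genes that fell numbered 26 to 32 and those that rose 5 to 10; all probe sets higher numbered 1497 to 3494 and lower 2289 to 3613. With the replicate number as a block, 1915 probe sets and 5 related genes were higher. Deviations of same-numbered arrays correlated at -0.13, -0.06 and 0.0008, so no likeness between same-numbered arrays was seen. With so few arrays per group, these values cannot decide whether same-numbered arrays shared a culture or day. Of the single genes, Cdh3 turned sign, with values from -0.0174 to 0.0643 when 1 array was left out. Calls of Prkci, Cdh4, Nectin3, Patj and Cldn9 ended in 24 combinations of gene and fit. Taking up to 25 brighter genes on each side (31 genes in all for Epcam, with 6 towards the chromosome end, 34 for Cldn12 and 50 for the others) in place of 5 genes of any level moved the median around Epcam to -0.39, Cldn6 to -0.0221, Cldn3 to -0.0206, Cldn4 to -0.0182, Cldn5 to 0.0511, Cldn12 to 0.12, Ocln to 0.0111, Tjp1 to 0.0169 and Cdh1 to 0.0069. Both the width and the level of the genes changed there, and the cause of these moves was not tested; the 8 brighter genes among the 10 nearest of Epcam had a median of -0.74. Cldn5 and the second Ocln probe set lay close to the median of all probe sets, which limits what they can show.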

Other observations

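Within wild type, 8 of the 10 genes (all but Tjp1 and Cdh1) were lowest in replicate 2, and the remaining pair was lowest in replicate 1. Among 11607 genes above the median of all probe sets, 35.8% were lowest in replicate 2 and 20.6% in replicate 1. The array that stood apart over all probe sets was replicate 1. The claudin genes had no single order, as Cldn4 was highest in replicate 1 and the others were highest in replicate 3. The summed level of endoderm markers was 7175 in replicate 1, 6494 in replicate 2 and 5703 in replicate 3. That of the keratin genes Krt7, Krt8, Krt18 and Krt19 was 2851, 2645 and 3095. What these orders reflect was not tested.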
